A study of Mus musculus with 8 samples.

Results

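The Hox code of the tracheal mesenchyme was described from the 39 gene symbols that name a Hox gene of cluster A, B, C or D, taken from 2 tables of 23478 gene symbols each. The members were chosen by name alone, and they comprise 11 HoxA genes on chromosome 6, 10 HoxB genes on chromosome 11, 9 HoxC genes on chromosome 15 and 9 HoxD genes on chromosome 2. All 8 RNA sequencing libraries came from mouse embryos at E13.5. The first table holds cells sorted from tracheas, labelled chondroblasts, from 2 Bmp4flox/flox, Foxg1Cre+, γSMAeGFP mutants and 3 Bmp4flox/flox, γSMAeGFP controls without Cre. Both of these groups carry the floxed Bmp4 alleles and the muscle reporter, and epithelial cells (EPCAM) and reporter-positive muscle cells were sorted out of both. The second table holds whole tracheas from 1 Wls flox/flox, ShhCre+ mutant and 2 Wls flox/flox controls. ShhCre acts in the airway epithelium, where Wls carries Wnt proteins to the cell surface, whereas the labels do not say in which tracheal cells Foxg1Cre acted. Separate embryos behind the libraries of a group are not stated either, so a p-value below measures the spread among these samples alone, and that spread may be technical.

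Hox genes encode homeodomain transcription factors and lie in 4 clusters, each numbered by paralog group from the 3′ end. Genes of low number are activated earlier and reach further towards the head than genes of high number, so the combination of active members marks the position of a tissue along the body axis. In the airway, Hoxa5 is known to be needed for the tracheal cartilage rings and for lung growth, and Hoxb5 acts in lung branching. Hox proteins bind DNA together with Pbx and Meis cofactors, Polycomb proteins hold the silent part of a cluster closed, and retinoic acid activates the 3′ genes.

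Promoter sequence is shown for members called lower in a comparison below, as the 250 bases that end just before the RefSeq start, on the coding strand, in build GRCm38.p6. Hoxa2 lies at chr6:52164832-52165081 (minus strand), Hoxa5 at chr6:52204588-52204837 (minus strand) and Hoxb4 at chr11:96318017-96318266 (plus strand), and Hoxa4 had no entry. The capitals in Hoxa2 mark a match, on the opposite strand, to the Hox-Pbx motif TGATNNAT, 111 bases before the start.
Hoxa2: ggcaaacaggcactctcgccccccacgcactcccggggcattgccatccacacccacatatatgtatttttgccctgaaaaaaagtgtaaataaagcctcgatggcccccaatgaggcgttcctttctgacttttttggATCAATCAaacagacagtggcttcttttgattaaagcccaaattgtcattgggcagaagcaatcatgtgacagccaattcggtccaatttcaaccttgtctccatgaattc
Hoxa5: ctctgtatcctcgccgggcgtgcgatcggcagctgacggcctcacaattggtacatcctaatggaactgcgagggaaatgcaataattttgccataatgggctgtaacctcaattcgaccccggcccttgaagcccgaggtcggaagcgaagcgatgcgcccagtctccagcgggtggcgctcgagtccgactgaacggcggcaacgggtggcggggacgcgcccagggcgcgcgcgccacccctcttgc
Hoxb4: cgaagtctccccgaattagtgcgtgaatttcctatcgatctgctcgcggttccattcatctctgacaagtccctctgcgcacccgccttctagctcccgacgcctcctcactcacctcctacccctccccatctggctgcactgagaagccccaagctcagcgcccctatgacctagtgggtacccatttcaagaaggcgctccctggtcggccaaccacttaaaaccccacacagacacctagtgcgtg

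RefSeq promoter entries matched 22 of the 39 members by symbol, with 24 entries in all. On both strands, TGATNNAT was present in 4 of these 24 promoters, 16.7%, and in 7.68% of all 32851 promoters of the same length. The homeodomain core TAATTA, whose matches can overlap those of TGATNNAT, was present in 2 of the 24 (8.33%, against 4.84% of all). The TCF/LEF motif CTTTGA of Wnt signalling was present in 3 (12.5% against 13.8%), the GC-rich Smad motif GGCGCC of BMP signalling in 5 (20.8% against 9.59%), and the letters TATAAA in 4 (16.7% against 12.4%). The printed promoters of Hoxa5 and Hoxb4 held none of the 5. A match describes the letters in this window and is no evidence of binding.

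Depth was 12964287 and 15462780 counts in the Bmp4 mutants, 48876948 to 55492747 in their controls, and 24596836 to 31399982 in the tracheas. Bmp4 itself stood at 24.1 and 32.2 CPM (counts scaled to library size with TMM factors) in the Bmp4 mutants against 124, 99.2 and 121 CPM in the controls, and Wls at 65.7 CPM in the Wls mutant against 153 and 146 CPM. The cartilage genes Sox9 and Col2a1 were at 733 CPM or more in every control of the sorted cells. The 9 airway epithelium markers summed to between 25 and 39.6 CPM in these controls, and to 80.8 and 54.2 CPM in the mutants. Erythroid genes summed to 100400 CPM in Bmp4 mutant 1, 804 in mutant 2, and 4.02, 8265 and 7742 CPM in the controls. The smooth muscle markers summed to 1491 CPM in mutant 1, 216 CPM in mutant 2 and 122 to 157 CPM in the controls. Endothelial markers summed to 169 and 140 CPM in the mutants against 23.1 to 84.0 CPM in the controls, neuron and neural crest markers to 604 and 682 against 338 to 545 CPM, and leukocyte markers to 191 and 153 against 105 to 133 CPM. Of 7 smooth muscle markers edgeR called 6 higher in the deposited counts, where 39.3% of all tested genes were called higher. After the background subtraction described below 1 of 6 was called, Myh11 (log2 fold change 5.80 before and 6.25 after, edgeR adjusted p = 0.0033 and 0.0275). Myh11 was at 192 and 44.45 CPM in the mutants and at 0.957, 2.16 and 3.24 CPM in the controls. Of 5 leukocyte markers 2 were called higher, and after subtraction 1, Csf1r (log2 fold change 0.81 and 1.23, edgeR adjusted p = 0.00524 and 0.0282). The part of these other cells in the Hox results was not tested. Both Bmp4 mutants also carried a background of counts in genes silent in the controls: over 4334 genes without a count in any control, Hox genes left out, they held 21.2 and 19.6 counts per kilobase of exon.

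In control cells most Hox RNA came from paralog groups 2 to 5, and levels dropped after group 5 in the HoxA and HoxB clusters. Groups 2 to 5, which are 12 of the 39 members, held 99.0%, 97.4% and 97.5% of all Hox CPM in the sorted-cell controls and 96.2% and 96.0% in the trachea controls. Hoxb1 and Hoxd1 were low, at means of 0.0739 and 0.0763 CPM per kb in the sorted-cell controls and 0.112 and 0.0351 in the trachea controls. Per kilobase of exon, Hoxa5 stood at a mean of 38.1 CPM per kb in the sorted-cell controls and its neighbour Hoxa6 at 0.141, a ratio of 270. In the trachea controls the same pair stood at 45.0 and 0.149 CPM per kb, a ratio of 301. The HoxB cluster had the same border, with Hoxb5 at 6.55 and Hoxb6 at 0.183 CPM per kb in sorted cells (ratio 35.8) and at 6.12 and 0.520 in tracheas (ratio 11.8). In HoxC and HoxD the border depended on the table. Hoxc5 and Hoxc6 were at 2.18 and 0.0186 CPM per kb in sorted cells, the latter from 4 counts over all controls, but at 0.923 and 0.700 CPM per kb in tracheas. Hoxd4 and Hoxd8, which are neighbours because the cluster lacks the groups between them, were at 0.429 and 0.0101 CPM per kb in sorted cells and at 0.960 and 0.801 in tracheas. The tables differ in kit and in kind of sample, and no library of one was tested against the other.

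**Figure D1:**
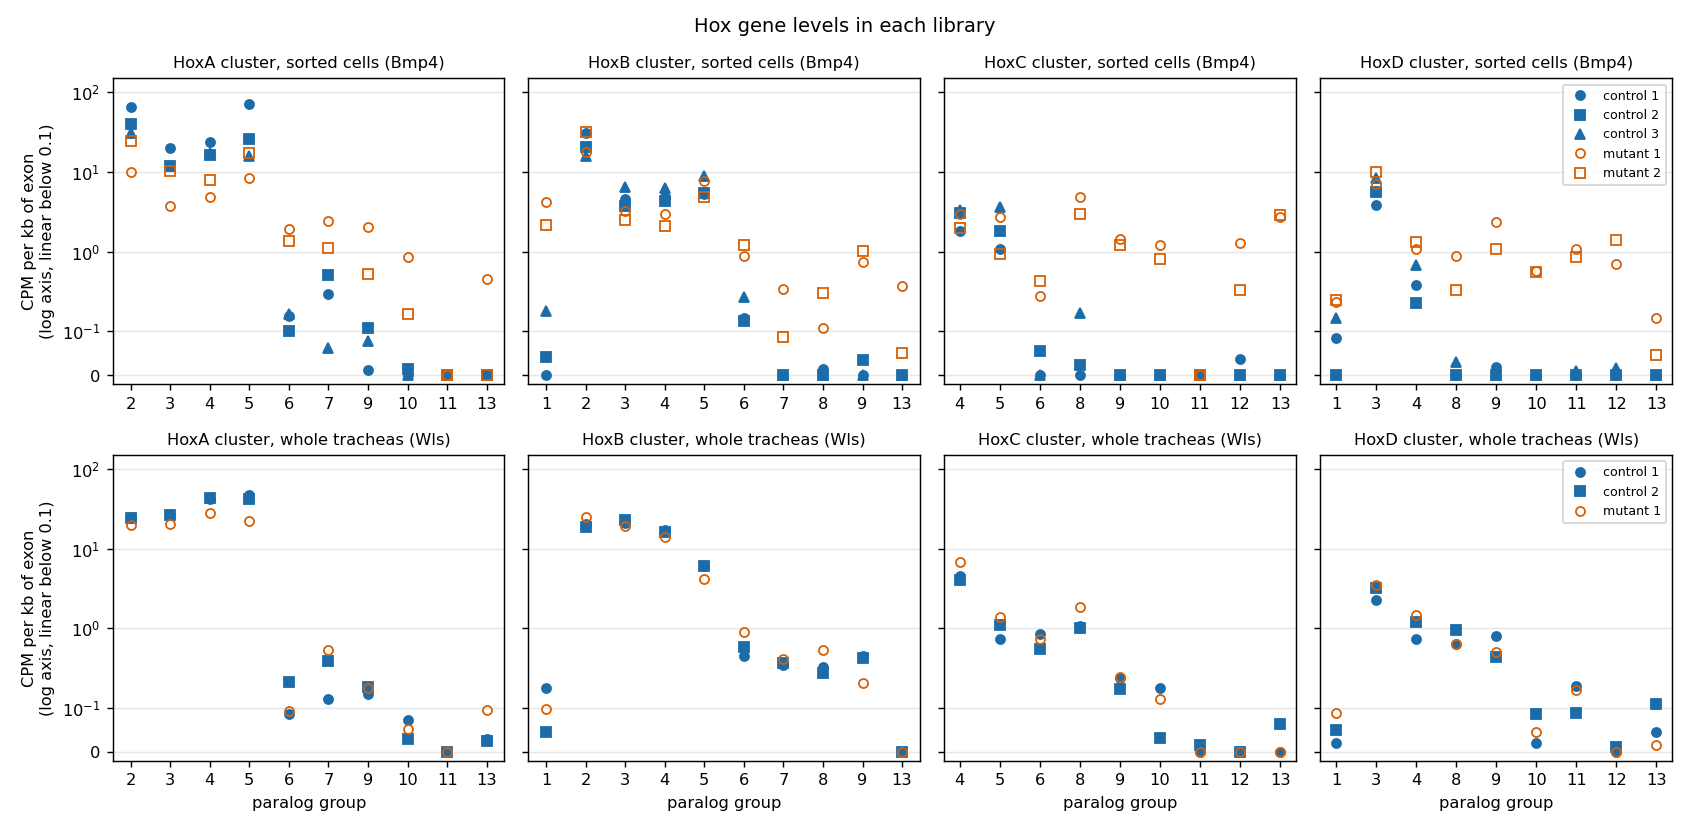
Level of Hox genes (CPM per kilobase of exon, log axis that is linear below 0.1) against its paralog group, with 1 panel per cluster and table and 1 point per library, filled for controls and open for mutants. In HoxA and HoxB the controls drop after group 5, and in the sorted cells the open mutant points lie above the controls for most members of groups 6 to 13.

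Within groups 2 to 5 the leading genes were Hoxa2 and Hoxa5 in sorted cells and Hoxa5 and Hoxa4 in tracheas. The order of control means in sorted cells was Hoxa2 at 45.9 ± 18.1 CPM per kb (SD, n = 3), Hoxa5 at 38.1 ± 30.1, Hoxb2 at 22.5 ± 7.79, Hoxa4 at 19.1 ± 3.89 and Hoxa3 at 14.6 ± 4.90. Each of these overlapped its neighbour in the order, since Hoxa5 alone ranged from 15.7 to 72.3 CPM per kb among the controls. Below them came Hoxb5 at 6.55, Hoxd3 at 5.91, Hoxb4 at 5.14 and Hoxb3 at 4.92 CPM per kb, again overlapping, then Hoxc4 at 2.73 and Hoxc5 at 2.18. In tracheas Hoxa5 (45.0 ± 3.97 CPM per kb, n = 2) and Hoxa4 (42.9 ± 0.645) overlapped, while Hoxa3 at 26.6, Hoxa2 at 24.7, Hoxb3 at 22.1, Hoxb2 at 19.6 and Hoxb4 at 16.5 CPM per kb followed without overlap between neighbours. Hoxb5 at 6.12, Hoxc4 at 4.29 and Hoxd3 at 2.74 CPM per kb came next. Levels between genes carry an uncertainty of their own, because reads of overlapping transcripts cannot be told apart. The antisense transcript Hoxb3os covers 63.9% of the exon bases of Hoxb3 and 58.5% of those of Hoxb2, and the same-strand model Gm28230 covers 75% of Hoxd3 and 45.1% of Hoxd4.

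A further 27 members were at or near 0. Their control means lay between 0 and 1.10 CPM in sorted cells and between 0 and 2.46 CPM in tracheas. Of the 39, 10 had no count in any of the 3 sorted-cell controls and 3 had none in either trachea control. A count of 0 allows up to 3 counts, which is 0.0586 to 0.0662 CPM in those sorted-cell controls and 0.0932 to 0.112 CPM in the trachea controls, for counting error only and if each count is 1 fragment. In the sorted cells 2 counts may be 1 fragment, and the bound would then be higher. Among the 24 members of groups 6 to 13 no sorted-cell control exceeded 1.01 CPM and no trachea control exceeded 2.64 CPM. Hoxa11 had no count in any of the 8 libraries.

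Loss of Bmp4 was compared over the sorted cells. In the deposited counts edgeR called 3 of 33 tested members lower, Hoxa2, Hoxa4 and Hoxb4, against 15.6% of all tested genes. With all libraries, none of the 3 passed after the background subtraction or with the replicate number as a block. Hoxa4 (mm10, chromosome 6, 52189671 to 52191753), which patterns cervical vertebrae, was at 37.5, 26.4 and 27.3 CPM in the controls and at 7.74 and 12.7 CPM in the mutants. Both mutants lay below every control, and the log2 fold change was -1.57 ± 0.31 (SE; edgeR adjusted p = 0.00489). Hoxa2 (chromosome 6, 52162417 to 52164831), the selector of the second pharyngeal arch, was at 117, 72.2 and 54.8 CPM in controls and at 17.8 and 43.0 CPM in mutants. Mutant 1 was the lowest and the groups did not overlap, with a log2 fold change of -1.42 ± 0.44 (edgeR adjusted p = 0.0298). Hoxb4 (chromosome 11, 96318267 to 96321638) was at 12.5, 11 and 16.1 CPM in controls and 7.60 and 5.38 CPM in mutants. Here mutant 2 was the lower, again without overlap, and the log2 fold change was -1.03 ± 0.35 (edgeR adjusted p = 0.0425). In bulk RNA fewer cells of a type and less RNA per cell cannot be told apart.

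These 3 calls differed in how far they rest on single libraries. Hoxa4 passed whichever library was left out. Hoxa2 did not pass without mutant 1 (log2 fold change -0.93, edgeR adjusted p = 0.148) or without control 1 (-1.06, adjusted p = 0.0514). Hoxb4 missed the threshold in each of the 5 fits with 1 library left out, with adjusted p between 0.0536 and 0.144 in edgeR's test. Over all tested genes 15.6% were called lower and 39.3% higher. Genes above the background limit had a median log2 fold change of -0.33, so the falls of these 3 members stand relative to that shift.

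Hoxa5 and Hoxa3 did not pass edgeR's test with all libraries. Hoxa5, the regulator of tracheal cartilage (chromosome 6, 52201754 to 52204587), was at 136, 49.4 and 29.5 CPM in controls and at 15.8 and 32.5 CPM in mutants. Control 3 lay below mutant 2, so the groups overlapped, and the log2 fold change of -1.56 ± 0.65 had an edgeR adjusted p of 0.0767. Without control 3 Hoxa5 passed (-1.93, edgeR adjusted p = 0.0227), and DESeq2 gave 0.0271 with all libraries. Without control 1 it was at -0.70 (edgeR adjusted p = 0.163), and limma-voom gave an adjusted p of 0.333 with all libraries. Hoxa3, which acts in the third pharyngeal arch and in thymus and parathyroid formation, was at 52.5, 30.5 and 30.5 CPM in controls and 9.71 and 26.8 CPM in mutants. Its groups did not overlap, mutant 2 lay close under the lower controls, and the log2 fold change was -1.04 ± 0.45 (edgeR adjusted p = 0.0864). Without mutant 2 it was at -1.96 and passed (edgeR adjusted p = 0.0328), and without mutant 1 it was at -0.51 (adjusted p = 0.331).

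In the HoxB cluster, Hoxb2, Hoxb3 and Hoxb5 were not called. Hoxb2, which acts in hindbrain patterning, was at 50.7, 33.1 and 26.1 CPM in controls and at 29.3 and 51.2 CPM in mutants. The groups overlapped for Hoxb2 (log2 fold change 0.14 ± 0.34, edgeR adjusted p = 0.747). Hoxb3 was at 16.0, 13.2 and 22.9 CPM in controls and 11.2 and 8.66 CPM in mutants, without overlap (log2 fold change -0.80 ± 0.34, edgeR adjusted p = 0.0779). Hoxb5, the lung branching gene, was at 10.1, 10.3 and 16.9 CPM in controls and at 14.6 and 9.06 CPM in mutants. Its groups overlapped (log2 fold change -0.07 ± 0.38, edgeR adjusted p = 0.882).

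Hoxc4, Hoxc5 and Hoxd3 overlapped between groups. Hoxc4 was at 3.59, 6.07 and 6.56 CPM in controls and at 5.92 and 3.91 CPM in mutants. Hoxc5 was at 3.16, 5.36 and 10.6 CPM in controls and at 8.03 and 2.72 CPM in mutants, so each group held both a high and a low library. Hoxd3, which patterns the first cervical vertebra, was at 11.5, 16.5 and 24.6 CPM in controls and at 21.0 and 30.1 CPM in mutants. Mutant 2 was the highest and control 1 the lowest for Hoxd3. Their log2 fold changes were -0.14 ± 0.49, -0.25 ± 0.69 and 0.54 ± 0.35, with edgeR adjusted p of 0.823, 0.772 and 0.220. In all, the mutants lay below every control in 5 of the 11 members given here in full, which have a mean of at least 5 CPM in the controls of either table (25.6% of all tested genes), and above every control in none of the 11 (48.2% of all tested genes).

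**Figure D2:**
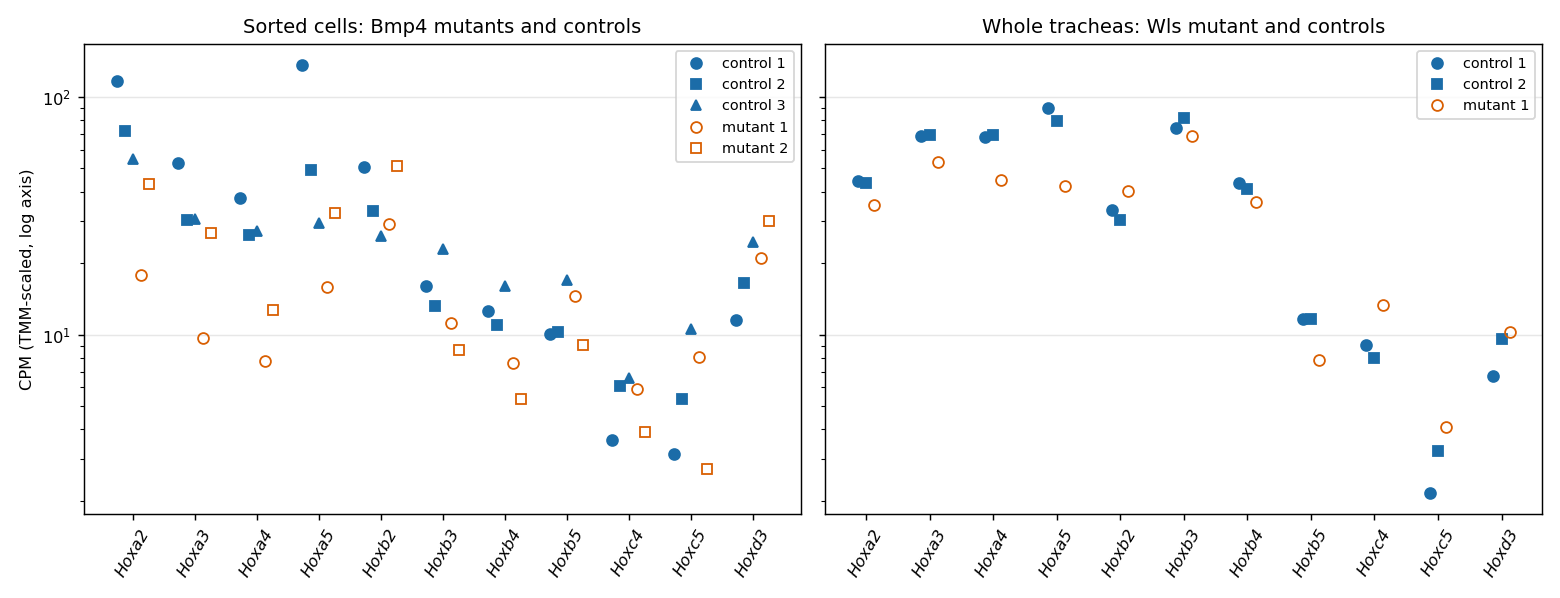
CPM (TMM-scaled, log axis) of 11 Hox genes with a control mean of at least 5 CPM in either table, with 1 point per library, sorted cells on the left and whole tracheas on the right. In the sorted cells the open mutant points of Hoxa4 lie at 7.74 and 12.7 CPM below all controls, whereas for Hoxa5 the controls themselves run from 29.5 to 136 CPM.

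The edgeR test on the deposited counts also called 19 members higher in the Bmp4 mutants, against 39.3% of all genes tested. The test covered 33 of the 39 members, and members near 0 in the controls could pass its filter on low counts only through the mutants, so this count gives no support to a rise. Of the 19, 18 belong to groups 6 to 13 and the last is Hoxb1. In the controls they ranged from 0 to 1.01 CPM, with 4 of them at 0 counts throughout, and in the mutants from 0.292 to 9.13 CPM. The untested 6 were Hoxa11, Hoxa13, Hoxb7, Hoxb13, Hoxc11 and Hoxd13, none above 0.803 CPM in a library.

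The mutant counts of these distal Hox genes were close to those of genes silent in the controls. Among the genes without a count in any control, the span from the 10th to the 90th percentile was 0 to 55.5 counts per kb in mutant 1 and 0 to 52.9 in mutant 2. In each mutant, 23 of the 24 members of groups 6 to 13 lay inside that span. Their medians were 11.9 and 9.61 counts per kb, against 16.1 and 14.8 for the silent genes. The span starts at 0 and holds most silent genes by definition, so this count cannot tell background from low expression. Of the 24, 10 had no count in any control and would meet the definition of a silent gene themselves. Their summed counts were 811 and 714, where the mean background rate over their exons gives 1103 and 1020, which is 0.736 and 0.700 of the expectation. Of the 19 members called higher, 17 lay inside the span in both mutants. The exceptions were Hoxc8, at 66.9 and 53.0 counts per kb and above the span in both mutants, and Hoxb1, at 58.0 and 38.4 counts per kb and above it in mutant 1 alone. The background limit was a mean over the 5 libraries of 2 times the background for the exon length, and all 19 stayed below it. Because that mean includes the controls, members near 0 there could hardly reach it. Hoxc8 did not, at 3.16 and 2.71 times the background in the mutants, so the limit says little about these members. Hoxc8, a gene of thoracic identity, stood at 9.13 and 5.61 CPM in the mutants and at 0, 0.0441 and 0.312 CPM in the controls. Whether Hoxc8 and Hoxb1 exceed a local background was not tested.

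**Figure D3:**
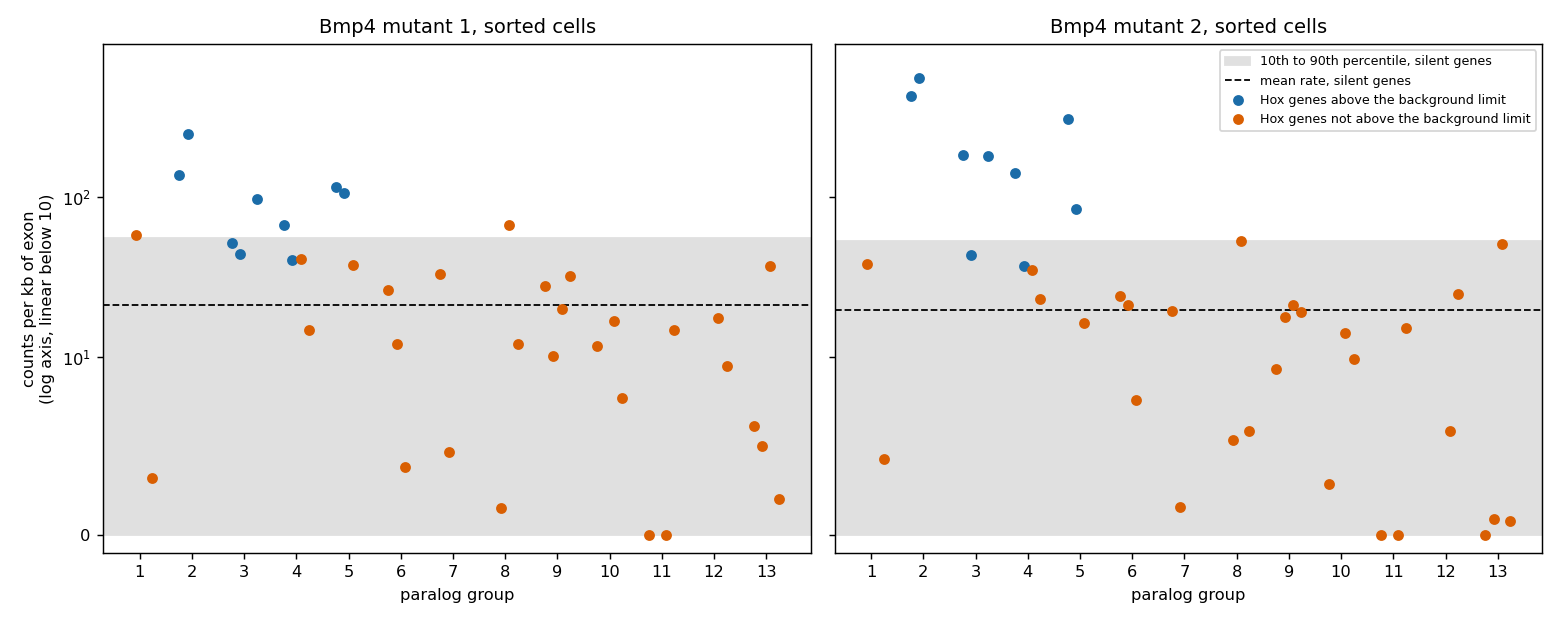
Counts per kilobase of exon (log axis, linear below 10) of Hox genes by paralog group in each Bmp4 mutant, with the grey band from the 10th to the 90th percentile and the dashed mean rate of 4334 genes without a count in the controls. Blue points reached the background limit, and in each mutant 23 of the 24 members of groups 6 to 13 lie inside the band, which starts at 0.

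With the background subtracted in the mutants, no Hox gene passed the test in either direction. Power after subtraction was not simulated. In counts simulated for this design without subtraction, with only a small part of the genes changed, edgeR recovered 13% of 2-fold and 73% of 4-fold changes. With so few libraries, a missed threshold is no evidence of an unchanged level. Of the 39 members 9 were above the limit and tested, and among the 11253 genes tested 2.89% were called higher and 1.16% lower. At an unadjusted p under 0.05 edgeR gave 0 higher and 3 lower, which were Hoxa4, Hoxb3 and Hoxb4. Hoxa4 was at a log2 fold change of -1.41 ± 0.35 (edgeR adjusted p = 0.0811). Without mutant 2 it passed at -1.91 (edgeR adjusted p = 0.0440), without mutant 1 it was at -1.04 (adjusted p = 0.131), and without a control the adjusted p was 0.184 to 0.230. Hoxb4 was at -1.57 ± 0.41 and Hoxb3 at -1.20 ± 0.38 (edgeR adjusted p = 0.0873 and 0.126). Both genes lay inside the span of the silent genes in both mutants, and their values depended on the assumed background rate. At 0.5 and 1.5 times that rate Hoxb4 was at -1.04 and -2.64, and Hoxb3 at -0.76 and -1.93. Hoxa2 was at -1.05, Hoxa5 at -1.23 and Hoxa3 at -0.87 (edgeR adjusted p = 0.222, 0.321 and 0.385). Hoxb2 was at 0.55, Hoxd3 at 0.79 and Hoxb5 at 0.12, with edgeR adjusted p of 0.359, 0.255 and 0.898.

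The sum of Hoxa2 to Hoxa5 varied more among the sorted-cell libraries than the sum of Hoxb2 to Hoxb5, but this did not hold gene by gene. The control SD was 56.5 CPM around a mean of 71.6 CPM for Hoxa5, but 6.20 CPM around 30.4 CPM for Hoxa4. Hoxa2 to Hoxa5 summed to 343, 178 and 142 CPM in the controls and to 51.1 and 115 CPM in the mutants. Hoxb2 to Hoxb5 summed to 89.3, 67.6 and 81.9 CPM in the controls and to 62.7 and 74.3 CPM in the mutants. The HoxA sum thus spanned a wide range even among controls, and its groups did not overlap. The sums of Hoxb2 to Hoxb5 overlapped between groups, and that overlap rests on Hoxb2. Without it, Hoxb3 to Hoxb5 summed to 38.6, 34.5 and 55.8 CPM in the controls and to 33.4 and 23.1 CPM in the mutants, which lay below every control. Hoxb2 was at 50.7, 33.1 and 26.1 CPM in controls 1 to 3, so the 2 parts of the HoxB sum partly offset each other. The 9 cartilage marker genes summed to 5665, 3460 and 2650 CPM in controls 1 to 3 and to 548 and 1374 CPM in the mutants. This is the same order of the 5 libraries as for the HoxA sum, with control 1 highest and mutant 1 lowest. Of the 9 cartilage genes 5 were called lower and 1 higher in edgeR's test on the deposited counts, where 15.6% and 39.3% of all tested genes were called. Matn1 was at 0 in controls 1 and 2. The part of cartilage cell content in the HoxA differences was not tested.

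**Figure D4:**
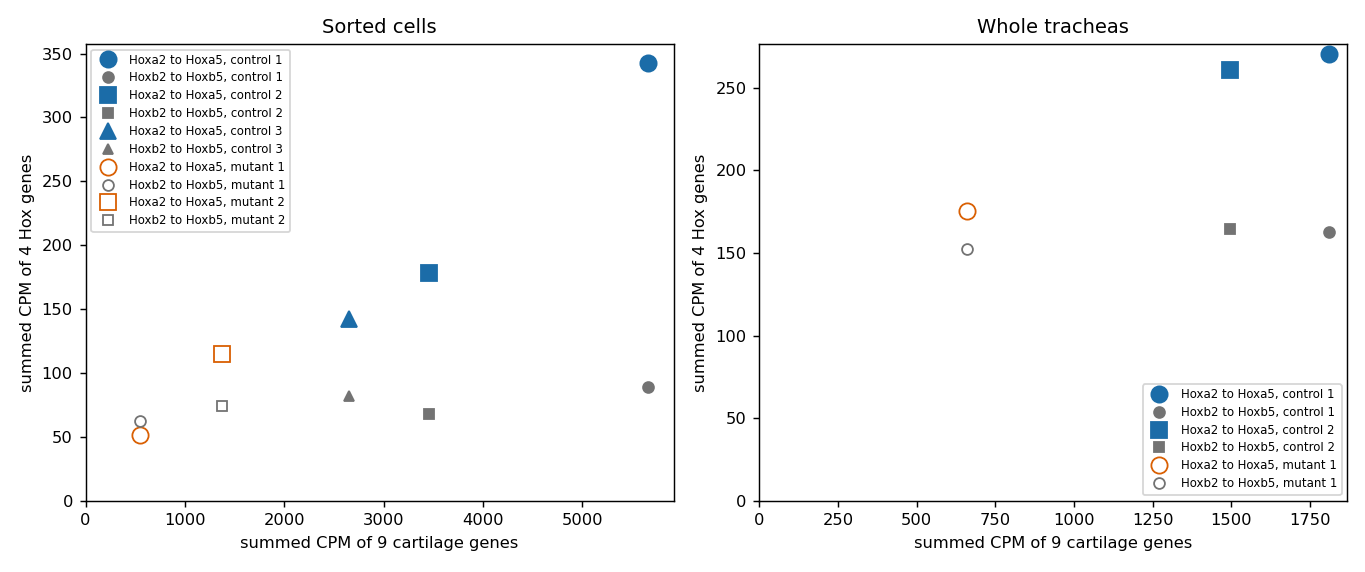
Summed CPM of Hoxa2 to Hoxa5 (large symbols) and of Hoxb2 to Hoxb5 (small grey symbols) against the summed CPM of 9 cartilage marker genes, 1 pair of symbols per library, for sorted cells (left) and whole tracheas (right). The HoxA sum of the sorted cells runs from 51.1 to 343 CPM in the same order as the cartilage sum, and the HoxB sum stays between 62.7 and 89.3 CPM.

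In whole tracheas that lost Wls from the epithelium, edgeR called Hoxa5 and Hoxa4 lower. Hoxa5 was at 89.8 and 79.2 CPM in the 2 controls and at 42.1 CPM in the mutant, a log2 fold change of -1.01 ± 0.18 (edgeR adjusted p = 1.47e-05). Hoxa4 was at 67.7 and 69.2 CPM in the controls and at 44.8 CPM in the mutant, a log2 fold change of -0.61 ± 0.18 (edgeR adjusted p = 0.0257). For both genes the mutant lay further below the controls than the controls lay apart. Of the 39 members 26 were tested, with 2 lower and 0 higher, where 2.42% and 1.9% of all 15815 genes tested were called. At an unadjusted p under 0.05 edgeR gave 4 lower and 2 higher, and DESeq2 called 1 lower, Hoxa5, and 0 higher, with an adjusted p of 0.147 for Hoxa4. The median log2 fold change was 0.07 over the 26 and -0.01 over all genes. The test has 1 residual degree of freedom and assumes that the single mutant library varies like the controls. By a rule of size without a test (at least 2-fold, outside the controls by more than they differ), Hoxa5 was the one member that passed, with 0.753% of genes past it downward and 0.349% upward.

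The other members of groups 2 to 5 were not called. Hoxa2 was at 44.4 and 43.3 CPM in controls and 34.9 CPM in the mutant, and Hoxa3 was at 68.7 and 68.9 CPM against 53.5 CPM. Their log2 fold changes were -0.33 ± 0.18 and -0.36 ± 0.18 (edgeR adjusted p = 0.427 and 0.326). Hoxa2 to Hoxa5 thus all stood below both controls. In the HoxB cluster, Hoxb3 was at 74.2 and 81.3 CPM in controls and 68.2 CPM in the mutant, and Hoxb4 was at 43.5 and 41.1 CPM against 36.1 CPM. Hoxb5 was at 11.6 CPM in both controls and at 7.82 CPM in the mutant (log2 fold change -0.57 ± 0.26, edgeR adjusted p = 0.258). Hoxb2 stood the other way, at 33.5 and 30.5 CPM in controls and 40.3 CPM in the mutant (0.33 ± 0.18, edgeR adjusted p = 0.404).

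Hoxc4 was at 9.04 and 7.99 CPM in the trachea controls and at 13.4 CPM in the mutant (log2 fold change 0.66 ± 0.24, edgeR adjusted p = 0.120). Hoxc5 was at 2.17 and 3.23 CPM in controls and 4.10 CPM in the mutant, and Hoxd3 at 6.72 and 9.57 CPM against 10.2 CPM. The mutant was thus the highest of the 3 tracheas for Hoxc4, Hoxc5 and Hoxd3, with edgeR adjusted p of 0.518 and 0.639 for Hoxc5 and Hoxd3. Of the 11 members the mutant lay below both controls in 7 and above both in 4, where 37.6% and 36.9% of all tested genes did so. Hoxc8, the highest member outside groups 1 to 5 per kb, was at 1.98 and 1.90 CPM in controls and 3.44 CPM in the mutant.

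**Figure D5:**
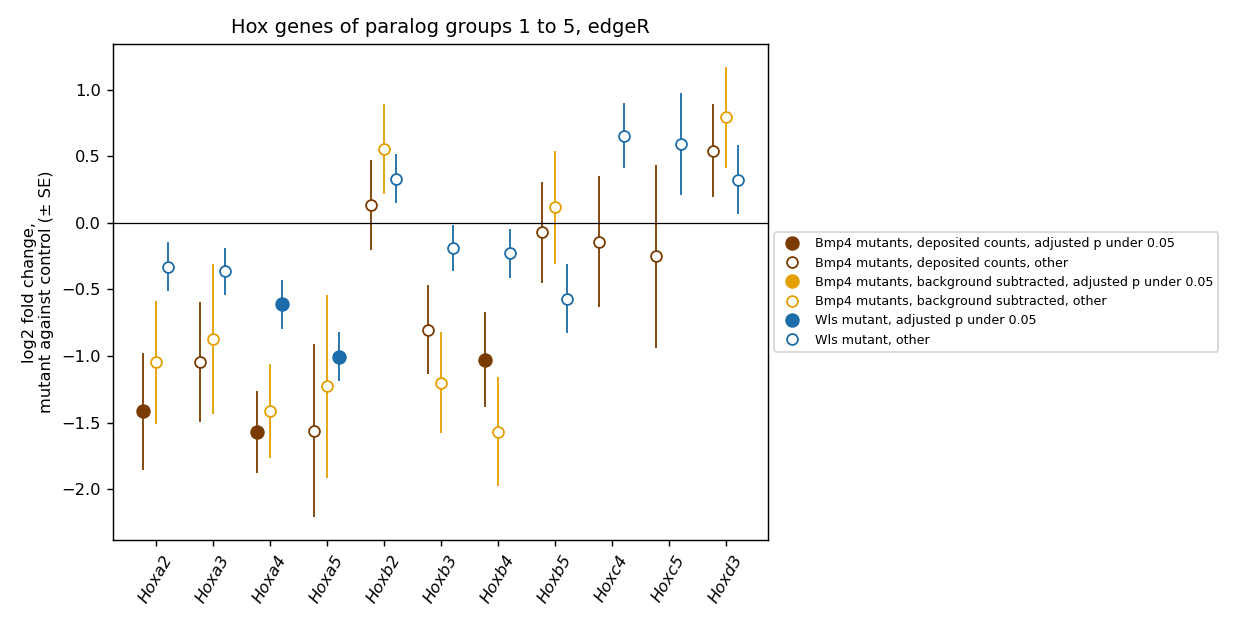
Log2 fold change of mutant against control (± SE, edgeR) for the same 11 Hox genes, in the Bmp4 mutants from deposited and from background-subtracted counts and in the Wls mutant, with filled points for an adjusted p under 0.05. Filled points are Hoxa2, Hoxa4 and Hoxb4 for the deposited counts of the Bmp4 mutants and Hoxa4 and Hoxa5 for the Wls mutant, and no background-subtracted point is filled.

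The tracheas also differed in the markers of other cells. The 9 cartilage genes summed to 660 CPM in the Wls mutant and to 1812 and 1497 CPM in the controls. Of the 8 tested, 7 were called lower, against 2.42% of all tested genes. Over the same libraries Hoxa2 to Hoxa5 summed to 175, 271 and 261 CPM, and Hoxb2 to Hoxb5 to 152, 163 and 164 CPM. Airway epithelium markers summed to 1211 CPM in the mutant and to 851 and 678 CPM in the controls, and smooth muscle markers to 2673 CPM against 1953 and 1613 CPM. Col2a1 and Sox9 were at 195 and 75.5 CPM in the mutant and thus present. The part of these markers in the Hox differences was not tested. Bmp4 was at 30.8 CPM in the Wls mutant and at 50.7 and 49.0 CPM in its controls (log2 fold change -0.69, edgeR adjusted p = 0.0105).

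Of 8 Pbx, Meis and Pknox genes, which encode DNA-binding partners of Hox proteins, edgeR called 4 lower and 0 higher in the Bmp4 mutants, and 0 in either direction after background subtraction (2 higher and 2 lower at an unadjusted p under 0.05). The shares over all tested genes in the deposited counts were 15.6% lower and 39.3% higher, and genes above the background had a median log2 fold change of -0.33. Meis1 was at 676, 726 and 607 CPM in controls and at 376 and 525 CPM in mutants, and Meis2 at 146, 159.9 and 190.4 CPM in controls and at 71.8 and 93.9 CPM in mutants. For both genes the mutants lay below every control. Meis1 and Meis2 passed in the deposited counts but not after subtraction (log2 fold change -0.08 and -0.60, edgeR adjusted p = 0.792 and 0.111). In the Wls mutant edgeR called 0 of the 8 (0 higher and 2 lower at an unadjusted p under 0.05).

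None of the listed chromatin regulators of the clusters was called in the Wls mutant. Of 18 Polycomb genes, 9 were called lower and 1 higher in the Bmp4 mutants, 1 of 16 lower after subtraction, and 0 in the Wls mutant (edgeR, also 0 at an unadjusted p under 0.05). In the Bmp4 comparison 15.6% of all tested genes were called lower and 39.3% higher, and 1.16% lower after subtraction. Genes above the background had a median log2 fold change of -0.33. The median was -0.56 over the Polycomb list and -0.50 over the trithorax and demethylase list. After subtraction these 2 medians were -0.26 and -0.21, against -0.01 over all tested genes. Whether the lists differ from other genes was not tested. The Polycomb call that held after subtraction was Cbx2, a reader of the Polycomb mark, with log2 fold changes of -1.42 ± 0.16 and -1.05 ± 0.14 (edgeR adjusted p = 0.0033 and 0.0273). Of 8 trithorax-group and H3K27 demethylase genes, 5 were called lower in the Bmp4 mutants, 1 of 7 after subtraction, and 0 in the Wls mutant (edgeR, also 0 at an unadjusted p under 0.05). The gene called after subtraction was Kdm6b, a demethylase of the Polycomb mark, at -1.27 ± 0.14 and -1.08 ± 0.13 (edgeR adjusted p = 0.0033 and 0.0259). Of 10 Cdx genes and other Hox regulators 5 were called higher in the deposited counts of the Bmp4 mutants, 0 of the 1 tested after subtraction, and 0 of 5 in the Wls mutant (edgeR, 1 lower at an unadjusted p under 0.05). Cdx1, Cdx2, Cdx4 and Lin28a had control means of 0 to 0.169 CPM and could pass the filter only through the mutants. Their calls give no support to a rise. Nr6a1, also called, had a control mean of 4.39 CPM.

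Genes of retinoic acid, an input to the 3′ Hox genes, changed in both directions. In the Wls mutant 2 of 13 were called higher and 3 lower by edgeR, where 1.9% and 2.42% of all tested genes were called. Aldh1a1, an enzyme that makes retinoic acid, was at 10.7 and 12 CPM in controls and 57.6 CPM in the mutant, and Cyp26a1, an enzyme that degrades it, was at 1.72 and 2.83 CPM against 8.85 CPM. Cyp26b1, of the same degrading family, was at 21.8 and 23.4 CPM in controls and 10.2 CPM in the mutant. The other 2 that fell were the receptor Rarg (log2 fold change -0.65) and Stra6, a retinol carrier of the cell membrane (-0.81), with edgeR adjusted p of 0.0153 and 0.000929. In the Bmp4 mutants 5 of 14 were called lower and 2 higher, where 15.6% and 39.3% of all tested genes were called. After subtraction 1 of 10 was called lower, against 1.16% of all tested genes. It was the receptor Rxra (-0.75 ± 0.14, edgeR adjusted p = 0.0475).

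At the ends of the clusters, most flanking genes were not called. Over all tested genes of the Wls comparison, 1.9% were called higher and 2.42% lower. In the Wls mutant 1 of 7 flanking genes was called, Evx1, a homeobox gene beside Hoxa13, at 5.24 CPM against 1.90 and 2.18 CPM in controls (log2 fold change 1.36 ± 0.38, edgeR adjusted p = 0.0144). The tables list 12 noncoding Hox-cluster genes, of which 3 were tested in the tracheas and 1 was called higher. It is 5730457N03Rik, named Evx1os by RefSeq, at 6.19 CPM against 1.31 and 2.18 CPM (1.82 ± 0.38, edgeR adjusted p = 0.000205). This transcript lies between Hoxa13 and Evx1. Hoxa13 was among the 13 Hox genes not tested there, none of which exceeded 0.336 CPM in a trachea. In the Bmp4 mutants 2 of 8 flanking genes were called higher and 1 lower, and 3 of 6 noncoding genes higher. Of all tested genes 39.3% were called higher and 15.6% lower. The flanking gene Ttll6 and the noncoding Hotair, Mir10b and Hoxd3os1 had control means of 0 to 0.0692 CPM. They could pass the filter only through the mutants, so their calls give no support to a rise. After subtraction 1 of 6 flanking genes (Skap1, higher) and 0 of 2 noncoding genes were called, where 2.89% of all tested genes were called higher. Skap1 was at 0.605, 0.904 and 0.291 CPM in the controls and at 13.7 and 8.66 CPM in the mutants. The background limit is a mean that includes the mutants, and Skap1 reached it through them. Its call therefore gives no support to a rise either. Of the genes named from these lists, all but Meis1 and Meis2 were picked after their values were seen.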

How the data were processed

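Counts per gene symbol, whole numbers, were used as the authors deposited them, with 1 table for sorted cells and 1 for tracheas. Per the submitters' processing notes, Bowtie2, Cufflinks, DESeq and mm10 were used, with Trim Galore for the sorted cells. The counting program, strand setting and gene annotation were not given in the sources used here. Trizol was used for RNA, per the labels' protocols, and sorted cells were amplified with SMART-Seq v4 and tracheas with Ovation v2, both before Nextera XT. Of low counts, 63.8% to 71.7% were even in the sorted-cell table and 44.6% to 45.4% in tracheas, so 2 counts may be 1 fragment.

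Each table was fitted alone in R 4.3.3 with edgeR 4.0.16 (TMM, filterByExpr, quasi-likelihood F test). Genes were called at p under 0.05 after Benjamini-Hochberg adjustment across the whole tested table. The fits had 3 and 1 residual degrees of freedom. The F statistic and the fold change gave the standard errors. CPM is the count over the TMM-scaled library total. Exon lengths are unions of exons of RefSeq-linked transcripts on GRCm38, for 22114 symbols matched by name and 1011 by synonym. The background rate times exon length was subtracted from the mutants and rounded, with a floor of 0, and 11267 genes were above the limit. The rule of size takes a log2 CPM difference of at least 1 (prior count 2), a mutant outside the controls by more than they differ, and log2 CPM averaging at least 3. Scripts were tested on simulated data. Some genes that were analysed are not reported here. Values in every library are given for members with a control mean of at least 5 CPM. The Hox genes, gene lists and tests were chosen with earlier results of these data known. Alternatives were leaving out each library, a replicate block, RLE scaling, no filter, DESeq2 1.42.0, limma-voom (limma 3.58.1), and other background rates and limits.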

Additional observations from a re-analysis of the deposited data

How the results depend on the processing

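Leaving out each library in turn gave 3 to 18 Hox genes called higher and 1 to 3 lower in the Bmp4 mutants (19 and 3 with all libraries). The low ends were 3 higher without mutant 1, 8 without mutant 2, and 1 lower (Hoxa4) without mutant 1 or without control 1. After background subtraction the count of lower calls ran from 0 to 1. For mutants and controls that share a number, deviations from the group means correlated at r = -0.174 and -0.106 over 21665 genes. The deviations of the 2 mutants from their mean mirror each other, so this check cannot decide whether the numbers pair the libraries. With the replicate number as a block, 0 were called higher and 0 lower by edgeR (12 and 3 at an unadjusted p under 0.05), and Hoxa4 had an adjusted p of 0.0563. Limma-voom called 1 lower and so did TMM factors from genes above the background, a scaling that moved the median of all genes from 0.53 to 0.85 and the split of all calls from 8507 higher and 3381 lower to 9533 and 1093. The log2 fold changes that changed sign were all of members that overlap between groups. Without single libraries they ran from -0.32 to 0.47 for Hoxb2, -0.48 to 0.23 for Hoxb5, -0.49 to 0.13 for Hoxc4, -1.26 to 0.34 for Hoxc5, and -0.40 to 0.53 for Hoxb5 after subtraction. With the replicate block Hoxb2 was at -0.078, Hoxb5 at 0.18, Hoxc4 at 0.042 and Hoxc5 at 0.19, and with the scaling on genes above the background Hoxb5 was at 0.25, Hoxc4 at 0.18 and Hoxc5 at 0.079. In the Wls comparison DESeq2 called 1 lower (Hoxa5), with Hoxa4 at an adjusted p of 0.147. The rule of size at 1.5-fold took 1 member higher (Hoxc4) and 3 lower (Hoxa4, Hoxa5 and Hoxb5). No paired analysis was possible for the tracheas because the groups share fewer than 2 numbers. The cause of these changes was not tested. The Bmp4 mutants are the shallower libraries, and with 1 mutant trachea the Wls differences have no replicate of the mutant.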
